A study of Homo sapiens with 24 samples.

Results

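The expressed ZNF zinc finger genes were described across 8 groups of arrays formed by cell line, treatment and time. They are the genes whose symbol is ZNF followed only by digits and for which at least 1 probe had a mean deposited log2 value of 7.5 or more in at least 1 of the 8 groups. Of 443 such symbols among the 20046 genes of the array, 211 met the level and are called members here. All 211 passed the detection filter of the test. The rule used measured levels: 86 members stood at 7.5 or more in all 8 groups, 125 in 1 to 7 groups, and 18 of these in 1 group only. Just inside the threshold were ZNF70 at a highest group mean of 7.503, ZNF304 at 7.53 and ZNF784 at 7.53, and just outside were ZNF181 at 7.497, ZNF740 at 7.48 and ZNF583 at 7.47.

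The series asked how trabectedin, a DNA-binding anticancer drug taken from a sea squirt, changes the RNA of diffuse large B cell lymphoma, an aggressive tumour of mature B cells. Of the 2 established lines used, U2932 is commonly classed as activated B cell-like and OCI-Ly7 as germinal centre B cell-like. The 8 groups were U2932 with trabectedin for 8 h, U2932 with DMSO for 8 h, U2932 with trabectedin for 24 h, U2932 with DMSO for 24 h, and the same 4 groups of OCI-Ly7, with 3 Illumina bead arrays each and 24 in all. Both lines were grown in vitro with the drug as the only agent or with its solvent DMSO, but neither the dose nor the source of the 3 replicates (separate cultures or one) is given in the labels, so p-values measure only the spread between these arrays, which may be technical.

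By the labels, all U2932 arrays lay on slide 1, and OCI-Ly7 8 h trabectedin and DMSO arrays on slide 2. The OCI-Ly7 arrays of 24 h trabectedin lay alone on slide 3, so slide and treatment cannot be told apart there, and line and slide cannot be told apart anywhere. Mean probe intensity ran from 182.8 to 556.3 per array, and between 11269 and 15424 of 47231 probes were detected above background. Between 175 and 202 members were detected on each array. Among the B cell markers MS4A1, CD79A, CD79B and CD22 were detected on all 24 arrays, while the 1 named probe of PAX5 was detected on none. T cell markers were detected on 0 arrays. The epithelial marker EPCAM was detected on 6 of 6 DMSO arrays of U2932 and 0 of 6 of OCI-Ly7. The myeloid marker CD14 was detected on 19 arrays, FCGR3A on 9 and LYZ on 2, while CSF1R, ITGAM, KRT18 and KRT19 were detected on 0.

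ZNF genes encode proteins with C2H2 zinc fingers, small folds held by a zinc ion that read DNA and sometimes RNA. Many carry a KRAB domain that binds the co-repressor TRIM28, which brings the histone methyltransferase SETDB1 and heterochromatin proteins to the bound DNA, above all to retrotransposons. Many KRAB genes arose by tandem duplication and lie in clusters, of which the largest are on chromosome 19. Other ZNF proteins act at promoters, on ribosomes, on RNA or at the mitotic spindle. Here 97 members lay on chromosome 19, 21 on chromosome 7 and 14 on chromosome 16, and the members came from 21 chromosomes in all.

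The promoter windows below are those of 3 members that rose and 2 that fell in U2932, and they show how the members compare in start-site sequence. Each window is the first that RefSeq lists for the gene on GRCh38.p14, a stretch of 300 bases that spans the annotated start. Such a window was found for 185 of the 211 members. ZNF84 is at chr12:133037259-133037558 on the plus strand, ZNF557 at chr19:7069453-7069752 on the plus strand and ZNF256 at chr19:57947657-57947956 on the minus strand. ZNF407 is at chr18:74597620-74597919 and ZNF215 at chr11:6926176-6926475, both on the plus strand. Capitals mark, on either strand, the ETS core CCGGAAG, the GC box GGGCGG, the CCAAT box and the NRF1 core CGCATGC; no TATAAA was found in these 5.
ZNF84: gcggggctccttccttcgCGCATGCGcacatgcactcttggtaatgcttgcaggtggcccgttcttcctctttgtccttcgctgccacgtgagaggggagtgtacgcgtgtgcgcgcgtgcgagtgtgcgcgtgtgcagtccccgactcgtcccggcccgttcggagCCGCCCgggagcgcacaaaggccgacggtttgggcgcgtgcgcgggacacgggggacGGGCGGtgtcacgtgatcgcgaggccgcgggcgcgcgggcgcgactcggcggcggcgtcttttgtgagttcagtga
ZNF557: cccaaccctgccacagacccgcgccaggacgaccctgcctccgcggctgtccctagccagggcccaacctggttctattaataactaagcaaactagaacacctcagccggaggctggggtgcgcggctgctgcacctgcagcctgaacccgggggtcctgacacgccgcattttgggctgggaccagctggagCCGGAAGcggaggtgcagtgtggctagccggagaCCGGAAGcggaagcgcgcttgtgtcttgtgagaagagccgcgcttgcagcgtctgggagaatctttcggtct
ZNF256: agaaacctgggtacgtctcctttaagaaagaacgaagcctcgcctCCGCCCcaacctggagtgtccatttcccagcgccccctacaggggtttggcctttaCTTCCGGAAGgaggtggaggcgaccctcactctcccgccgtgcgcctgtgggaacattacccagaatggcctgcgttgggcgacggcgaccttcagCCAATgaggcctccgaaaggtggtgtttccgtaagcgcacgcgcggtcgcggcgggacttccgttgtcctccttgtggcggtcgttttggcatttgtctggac
ZNF407: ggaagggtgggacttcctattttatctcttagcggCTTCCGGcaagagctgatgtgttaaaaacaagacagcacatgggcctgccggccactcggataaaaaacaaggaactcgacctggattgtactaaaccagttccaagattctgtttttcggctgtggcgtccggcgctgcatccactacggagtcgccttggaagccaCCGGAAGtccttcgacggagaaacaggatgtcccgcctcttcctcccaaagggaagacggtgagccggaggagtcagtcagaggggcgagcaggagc
ZNF215: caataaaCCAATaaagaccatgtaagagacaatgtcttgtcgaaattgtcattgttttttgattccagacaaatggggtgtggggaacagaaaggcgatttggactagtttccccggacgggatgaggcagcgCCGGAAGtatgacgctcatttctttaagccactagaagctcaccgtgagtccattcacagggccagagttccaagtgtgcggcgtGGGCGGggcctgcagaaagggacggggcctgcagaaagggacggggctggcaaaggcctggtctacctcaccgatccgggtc

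ZNF84 had no ETS core but 2 GC boxes and 2 overlapping NRF1 cores. ZNF557 and ZNF407 each had 2 ETS cores, ZNF256 had 2 that overlap as 1 palindrome, and ZNF215 had 1. ZNF557 rose by 1.21 and 2.02 log2 units in U2932 and by 0.73 and 1.19 in OCI-Ly7 at 8 h and 24 h (limma), and ZNF256 by 0.35 and 1.91 and by 0.61 and 1.46, with ZNF256 at -0.47 in U2932 at 8 h under median scaling. Across members, 81 of 185 windows (43.8%) held CCGGAAG, against 1416 of 6645 windows (21.3%) of other genes at the same level and 14.2% of 15843 protein-coding genes. It stood in 28 of 51 windows (54.9%) of members that rose in all 4 trabectedin comparisons and in 4 of 8 (50%) of members that fell in all 4. The CCAAT box stood in 54.6% of member windows and 38.5% of the other genes at the same level, the GC box in 67.6% and 70.4%, TATAAA in 1.62% and 5.72%, and CGCATGC in 6.49% and 7.39%. The CCGGAAG core was present in 3 copies in ZNF384 and ZNF787, and in 2 copies in 9 other members, among them ZNF274, ZNF410 and ZNF668. The motifs were searched after expression values had been seen, members share ancestors, and a match describes letters and not a bound factor.

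Most members were brighter after trabectedin than in DMSO on the quantile-normalised scale, on which every array has the same distribution of values. That direction depends on the scale, except in OCI-Ly7 at 8 h. Median scaling only sets the arrays' medians equal. Under it the median of all genes lay at -0.44 and -0.94 log2 units in U2932 at 8 h and 24 h. In OCI-Ly7 the median of all genes lay at 0.05 at 8 h and -0.41 at 24 h. Member values fell with it in U2932 and in OCI-Ly7 at 24 h, but not in OCI-Ly7 at 8 h. Since pools of cells were measured, fewer cells with a transcript and less RNA per cell cannot be told apart. In U2932 at 8 h, 122 of the 211 members rose and 53 fell (limma, adjusted p under 0.05), against 37.3% and 39.5% of the 10198 genes tested, and under median scaling 61 rose and 98 fell. At 24 h in U2932, 139 members rose and 48 fell, against 38.1% and 45.9% of all genes, and under median scaling 66 rose and 102 fell. In OCI-Ly7 at 8 h, 101 rose and 45 fell, against 28.6% and 30.6% of all genes, and under median scaling 81 rose and 33 fell. At 24 h in OCI-Ly7, 96 rose and 11 fell, against 22.2% and 23.5% of all genes, and under median scaling 11 rose and 23 fell.

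Of all genes tested, median scaling called 1665 higher and 5790 lower in U2932 at 8 h, 1656 and 6908 at 24 h, 2504 and 2367 in OCI-Ly7 at 8 h, and 306 and 2946 at 24 h. The median change of members was 0.36 log2 units in U2932 at 8 h, 0.73 at 24 h, 0.30 in OCI-Ly7 at 8 h and 0.50 at 24 h, against 0.00, -0.10, 0.00 and 0.01 over all genes tested. Under median scaling these member medians were -0.15, -0.23, 0.30 and 0.00. The distance of the member median above that of all genes was 0.29, 0.70, 0.25 and 0.42 under that scaling. The other 8188 genes at the same level had medians of 0.01, -0.12, 0.01 and 0.02 on the quantile-normalised scale. Between 39.5% and 24.5% of them rose in the 4 comparisons.

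**Figure D1:**
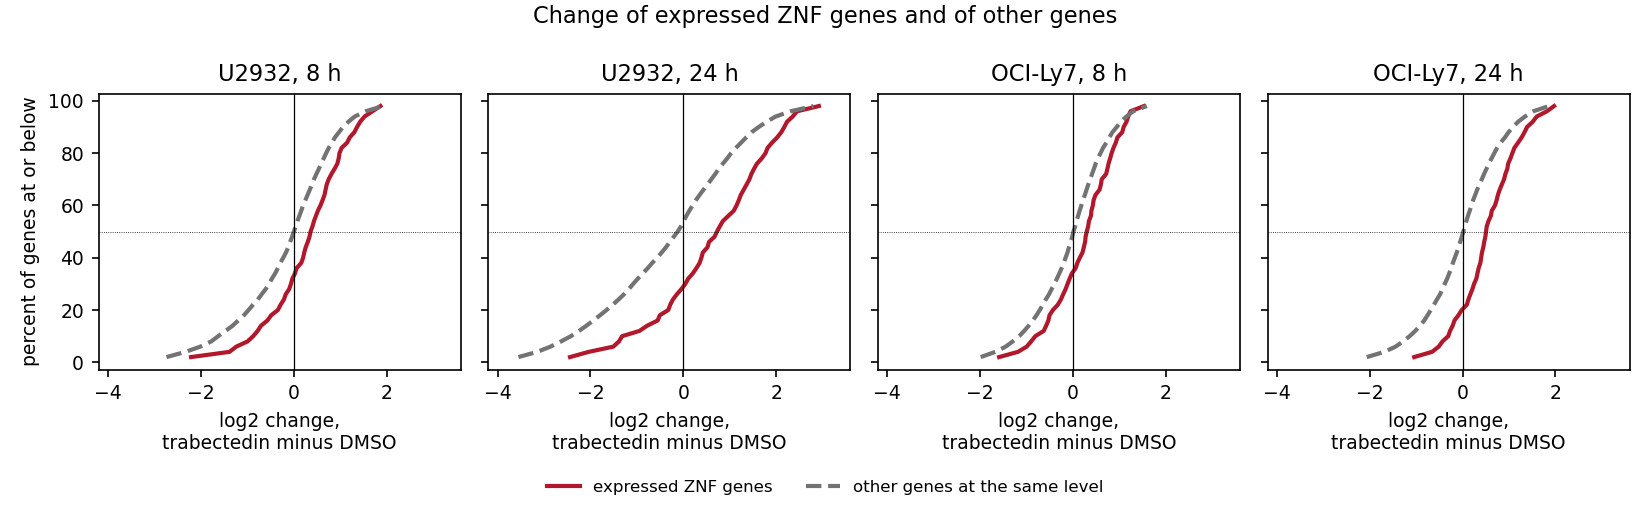
Cumulative distribution of log2 change (trabectedin minus DMSO, horizontal axis) for the 211 expressed ZNF genes (solid red) and 8188 other genes at the same level (dashed grey), one panel per line and time; the vertical axis is the percent of genes at or below a value. The red curve lies right of the grey one over most of its length in each panel, and crosses 50% at 0.36, 0.73, 0.30 and 0.50 log2 units.

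**Figure D2:**
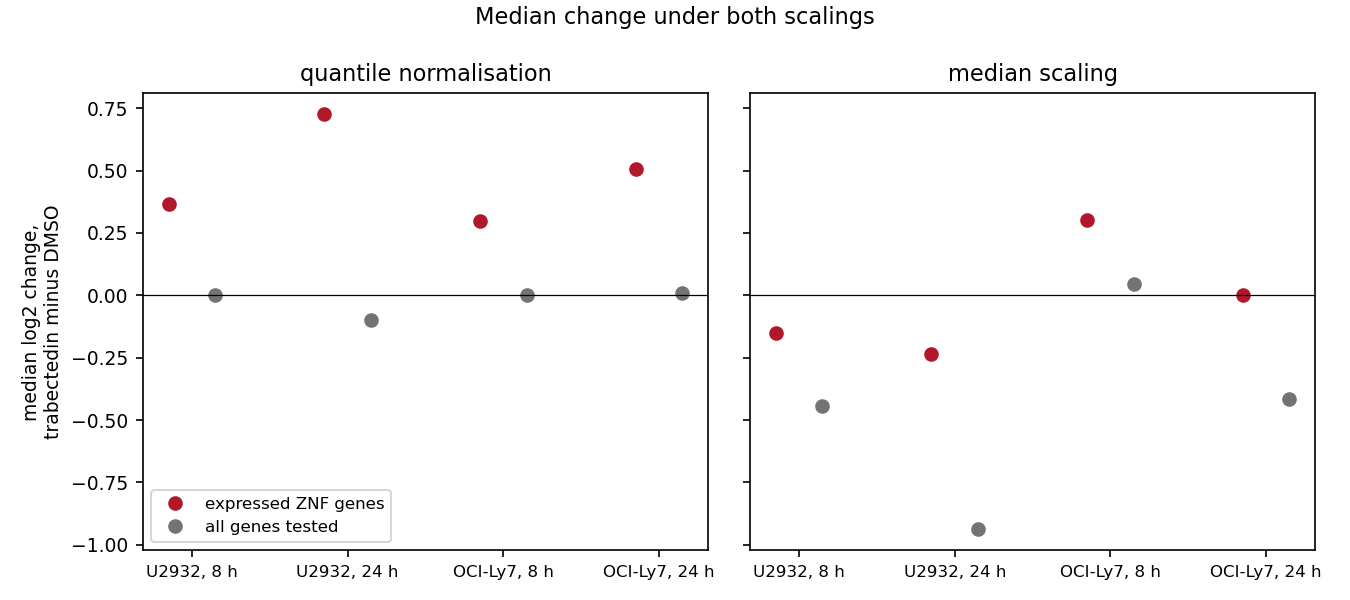
Median log2 change (trabectedin minus DMSO) of the 211 expressed ZNF genes (red) and of all 10198 genes tested (grey) for each line and time, after quantile normalisation (left) and after median scaling (right). Both sets of points shift down under median scaling in U2932 and in OCI-Ly7 at 24 h, and the red point stays above the grey one in all 8 pairs.

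Whether a member stood at 7.5 in the trabectedin group alone or in the DMSO group alone is tied to its direction by construction. In U2932 at 24 h, 64 members stood at the level in the trabectedin group only and 64 of them rose, and 18 stood there in the DMSO group only and 16 of them fell. Of the 104 members at the level in both groups, 70 rose and 19 fell, with a median change of 0.54. In OCI-Ly7 at 24 h the members at the level in both groups numbered 126, of which 55 rose and 6 fell, with a median of 0.50. At 8 h the members at the level in both groups were 117 in U2932, with 67 that rose and 27 that fell, and 119 in OCI-Ly7, with 52 and 28. Other genes were not split in this way. Of all genes tested, at any level, 37.3% rose and 39.5% fell in U2932 at 8 h, and 38.1% and 45.9% at 24 h. In OCI-Ly7 these shares were 28.6% and 30.6% at 8 h, and 22.2% and 23.5% at 24 h. A split by the mean over all 24 arrays, which favours neither treatment, left 147 members, of which 95 rose and 35 fell in U2932 at 24 h, against 38.9% and 48.4% of 6512 other genes with such a mean. In OCI-Ly7 at 24 h, 75 of these 147 rose and 8 fell, against 25.8% and 24.9% of those other genes. Under median scaling 46 of the 147 rose and 73 fell in U2932 at 24 h, and 8 rose and 17 fell in OCI-Ly7 at 24 h. Both splits were chosen after the data were seen, and the other counts are on the quantile-normalised scale.

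Groups that do not overlap gave similar counts. Every trabectedin array stood above every DMSO array in 124 members in U2932 at 8 h and in 139 at 24 h, against 38.6% and 38.9% of all genes tested. Every trabectedin array stood below in 56 and 49 members, against 40.6% and 46.7% of all genes. In OCI-Ly7 the corresponding counts above were 106 at 8 h and 111 at 24 h, against 32.2% and 26.8% of all genes. Those below were 49 and 15, against 33.7% and 28.6%.

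A set of 59 members rose in all 4 comparisons (28%, against 10.4% of all genes tested). Under median scaling 7 of them still did: ZNF34, ZNF84, ZNF317, ZNF425, ZNF493, ZNF669 and ZNF786. Of these, ZNF425 was in the background on all treated and DMSO arrays of U2932 at 24 h. A second probe of ZNF493 was called lower in U2932 at 8 h and 24 h. ZNF84, a member of a zinc finger cluster at the end of chromosome 12, had the highest change in U2932. Its log2 intensities in U2932 at 8 h were 10.36, 10.33 and 10.33 with trabectedin, against 7.05, 6.85 and 7.20 with DMSO. At 24 h they were 10.91, 11.03 and 11.01 with trabectedin, against 6.93, 6.98 and 7.06 with DMSO. The treated arrays lay close together and far above their controls at both times. In OCI-Ly7 ZNF84 stood at 8.48, 8.86 and 8.73 after 8 h of trabectedin, against 6.15, 6.30 and 6.20 in DMSO, and at 8.04, 8.50 and 8.48 after 24 h, against 6.35, 6.47 and 5.82. The groups did not overlap in any of the 4 comparisons. The changes were 3.31 ± 0.09, 3.99 ± 0.07, 2.47 ± 0.13 and 2.13 ± 0.22 (SE, n = 3 each, limma adjusted p from 0.000114 in OCI-Ly7 at 24 h down to 2.71e-09 in U2932 at 8 h).

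ZNF317, a KRAB gene, had a higher change at 24 h than at 8 h in both lines. In U2932 it stood at 9.76, 9.60 and 9.69 after 8 h of trabectedin, against 7.86, 8.07 and 8.05 in DMSO, and at 11.15, 11.02 and 11.06 after 24 h, against 7.71, 7.81 and 7.78. In OCI-Ly7 it stood at 8.14, 8.27 and 8.17 after 8 h, against 7.27, 7.35 and 7.59, and at 9.29, 9.63 and 9.01 after 24 h, against 7.72, 7.03 and 6.87. All treated arrays were above all controls, and the changes were 1.69 ± 0.09 and 3.31 ± 0.07 in U2932 and 0.79 ± 0.13 and 2.11 ± 0.25 in OCI-Ly7 at 8 h and 24 h (limma adjusted p of 0.000344 or less). ZNF263, which has SCAN and KRAB domains and binds many promoters, was among the brighter members that rose. It stood at 11.36, 11.49 and 11.66 in U2932 after 24 h of trabectedin, against 8.48, 8.53 and 8.63 in DMSO, a change of 2.96 ± 0.09 (limma adjusted p = 7.58e-08). In OCI-Ly7 at 24 h it stood at 10.09, 10.72 and 10.47 with trabectedin, against 9.26, 8.77 and 8.29 with DMSO, a change of 1.65 ± 0.26 (limma adjusted p = 0.000996) that was 0.90 under median scaling (adjusted p = 0.132). Its groups did not overlap in any comparison.

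Other members with high changes in U2932 were ZNF211, a KRAB gene of the distal chromosome 19 cluster, at 2.36 ± 0.08 after 8 h and 3.18 ± 0.06 after 24 h, and ZNF23 at 1.87 ± 0.07 and 3.09 ± 0.09. ZNF264 rose by 1.97 ± 0.14 at 8 h. ZNF397, which has a SCAN domain, rose by 2.03 ± 0.08 at 8 h, at 7.44, 7.44 and 7.48 against 5.30, 5.39 and 5.57 in DMSO, where 1 of 3 arrays detected it. In OCI-Ly7 at 8 h, ZNF580 rose by 2.62 ± 0.22, ZNF526 by 1.55 ± 0.13, and ZNF425 was at least 2.11-fold higher, since its 3 DMSO arrays were in the background. ZNF425 was in the background on all treated and all DMSO arrays of U2932 at 24 h, so its call there carries no fold. At 24 h in OCI-Ly7, ZNF223 rose by 2.21 ± 0.19, ZNF845 by 1.98 ± 0.26 and ZNF160 by 1.98 ± 0.16. ZNF845 was called on the quantile-normalised scale only (1.19 under median scaling, adjusted p = 0.0647).

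**Figure D3:**
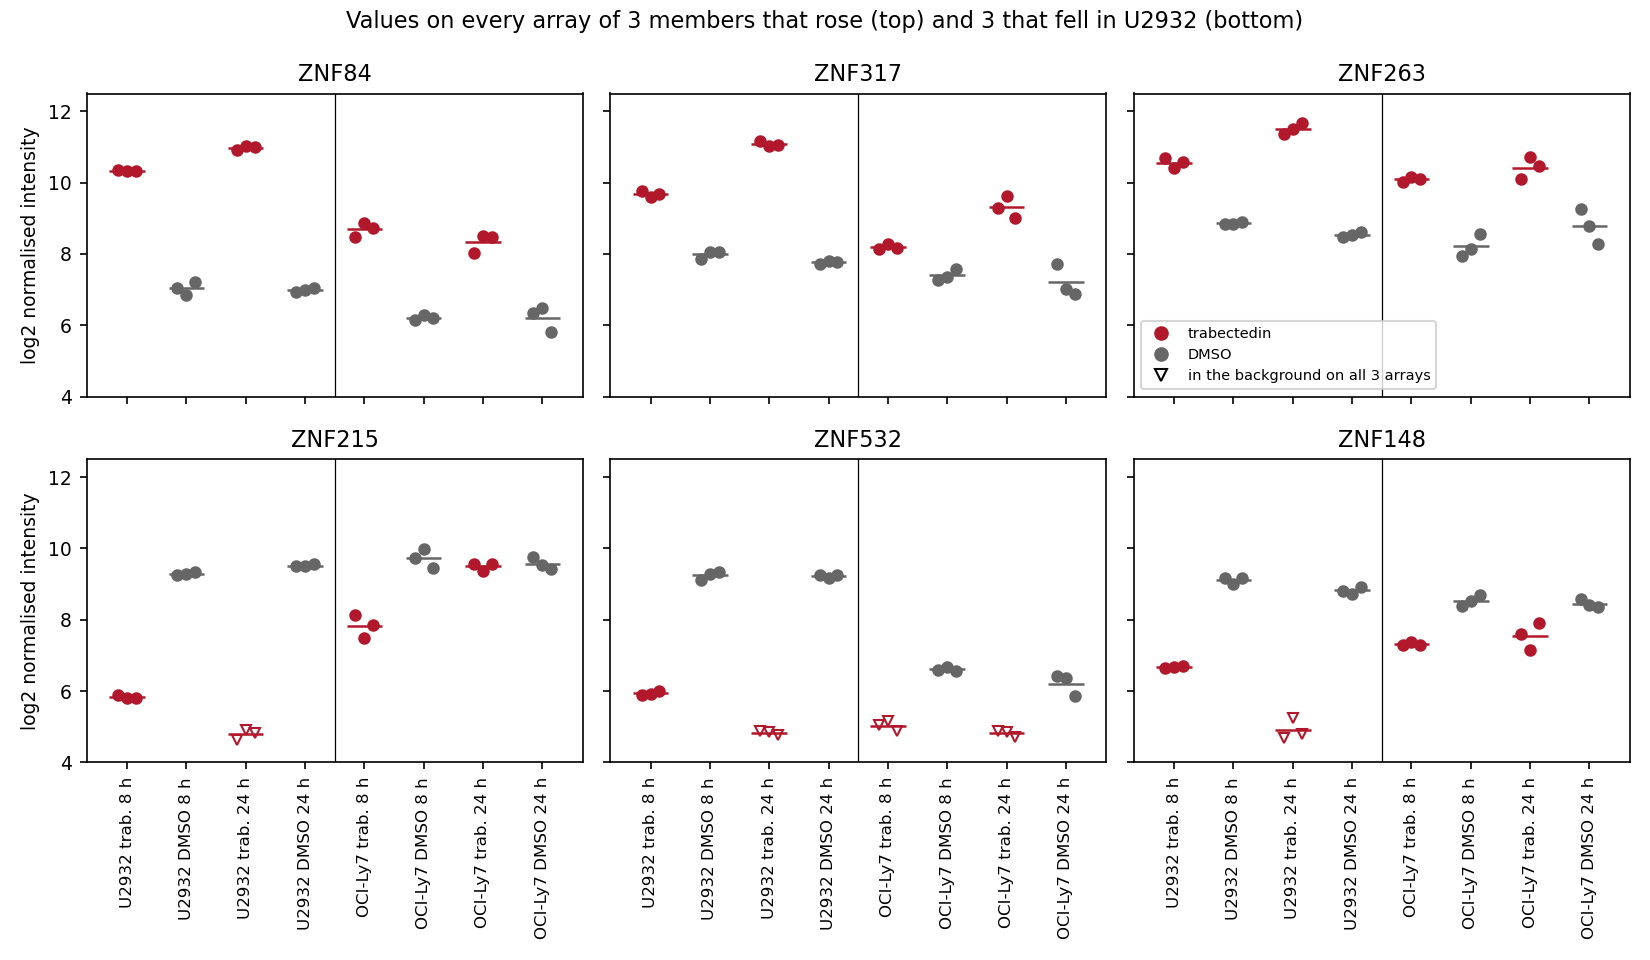
Log2 normalised intensity on every array (points) and group means (lines) of ZNF84, ZNF317 and ZNF263, which rose, and ZNF215, ZNF532 and ZNF148, which fell in U2932; trabectedin in red, DMSO in grey, open triangles for groups in the background on all 3 arrays. ZNF84 lies at 10.91 to 11.03 with 24 h of trabectedin in U2932 and at 6.93 to 7.06 with DMSO, while ZNF215 in OCI-Ly7 at 24 h has overlapping groups.

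Only 9 members fell in all 4 comparisons (4.27%, against 14.4% of all genes tested): ZNF138, ZNF148, ZNF277, ZNF407, ZNF532, ZNF573, ZNF586, ZNF644 and ZNF827. Under median scaling 12 members fell in all 4 comparisons, against the 7 that rose in all 4 on that scale. Among the 12 were 8 of these 9, and ZNF573 missed the threshold in OCI-Ly7 at 8 h. ZNF532, which forms a chromatin complex with its relatives ZNF592 and ZNF687 and is a fusion partner in NUT carcinoma, stood at 5.90, 5.92 and 6.01 in U2932 after 8 h of trabectedin, against 9.13, 9.28 and 9.33 in DMSO. At 24 h its treated arrays were in the background at 4.89, 4.86 and 4.77, against 9.25, 9.16 and 9.24 in DMSO, at least 9.01-fold lower. In OCI-Ly7 DMSO it was much dimmer, at 6.36 to 6.68 on 5 of 6 arrays and 5.85 on the other, and all 6 treated arrays were in the background. The drop there was at least 1.9-fold at 8 h and at least 1.56-fold at 24 h.

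ZNF148, a factor that binds GC-rich promoters, stood at 6.64, 6.68 and 6.69 in U2932 after 8 h of trabectedin, against 9.18, 8.99 and 9.16 in DMSO, a change of -2.44 ± 0.08 (limma adjusted p = 4.25e-09). At 24 h it was in the background at 4.70, 5.25 and 4.81, against 8.81, 8.73 and 8.93, at least 6.85-fold lower. In OCI-Ly7 it stood at 7.31, 7.37 and 7.28 after 8 h, against 8.40, 8.53 and 8.68, and at 7.59, 7.15 and 7.90 after 24 h, against 8.58, 8.40 and 8.37. The groups did not overlap, and the change was smaller than in U2932, at -1.22 ± 0.12 and -0.91 ± 0.21 (adjusted p = 1.84e-05 and 0.00624).

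ZNF827, which recruits the NuRD complex to telomeres kept by recombination, was in the background in U2932 with trabectedin at 4.90, 4.83 and 4.94 after 8 h, against 8.07, 8.17 and 8.15 in DMSO, at least 5.24-fold lower. At 24 h it was at least 3.74-fold lower, at 4.59, 4.74 and 4.75 against 8.04, 7.91 and 7.89. In OCI-Ly7 ZNF827 changed by -2.25 ± 0.17 at 8 h and by -1.51 ± 0.22 at 24 h, where 2 of 3 treated arrays detected it at each time. ZNF407 was in the background on all 12 treated arrays, from 4.52 to 4.91, and between 6.10 and 7.07 on the 12 DMSO arrays. It was lower by at least 2.22-fold and 1.42-fold in U2932 and by at least 1.72-fold and 1.8-fold in OCI-Ly7, at 8 h and 24 h in each line. ZNF277 was at least 3.39-fold and 2.76-fold lower in U2932 and changed by -1.34 ± 0.19 and -1.28 ± 0.16 in OCI-Ly7. ZNF138 was at least 1.75-fold and 1.3-fold lower in U2932 and changed by -1.07 ± 0.13 and -0.94 ± 0.18 in OCI-Ly7.

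ZNF586 was called lower from its brightest probe, but another of its 3 tested probes was called higher in U2932 at 24 h and in OCI-Ly7 at 24 h. Its brightest probe stood at 8.26, 8.24 and 8.41 in U2932 after 24 h of trabectedin, against 9.64, 9.64 and 9.53 in DMSO. Of the 211 members 49 had more than 1 tested probe, and in 8 of them a second probe was called the other way in at least 1 comparison: ZNF200, ZNF322, ZNF326, ZNF331, ZNF473, ZNF493, ZNF586 and ZNF777. The other 162 members rest on 1 tested probe each.

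Members called in 1 line were compared with those called in the other. At 24 h, 87 members rose in both lines (41.2%, against 17.2% of all genes tested), which is 62.6% of the 139 that rose in U2932 and 90.6% of the 96 that rose in OCI-Ly7. The same 9 members as above fell in both lines (4.27%, against 20.4% of all genes), 18.8% of the 48 that fell in U2932 and 81.8% of the 11 in OCI-Ly7. At 8 h, 87 members rose in both lines (71.3% of 122 and 86.1% of 101), against 21.5% of all genes, and 31 fell in both (58.5% of 53 and 68.9% of 45), against 25% of all genes. These shares are of calls on the quantile-normalised scale. Only ZNF189, ZNF217, ZNF548, ZNF559 and ZNF627 moved in opposite directions in the lines at 24 h (2.37%, against 3.36% of all genes): each fell in U2932 and rose in OCI-Ly7, while under median scaling all 5 lay below 0 in both lines. ZNF146, ZNF674 and ZNF792 were called in none of the 4 comparisons on the quantile-normalised scale. Under median scaling ZNF146 was called lower in U2932 at 8 h and 24 h (-0.59 and -1.20). ZNF674 was then called higher at 24 h in U2932 and OCI-Ly7 (0.33 and 0.81), and ZNF792 was still not called.

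The difference between the lines was tested directly. At 8 h the U2932 effect was above the OCI-Ly7 effect in 49 members and below it in 40, against 19.2% and 26.1% of all genes. Under median scaling it was above in 5 and below in 103, beside 509 and 5649 of all 10198 genes tested. At 24 h it was above in 68 members and below in 53, against 22.8% and 35.7% of all genes. Under median scaling it was then above in 19 members, beside 859 of all 10198 genes. ZNF215, a SCAN and KRAB gene of the imprinted region tied to Beckwith-Wiedemann syndrome, showed the widest gap. In U2932 it stood at 5.88, 5.80 and 5.80 after 8 h of trabectedin, against 9.27, 9.28 and 9.33 in DMSO, and at 4.64, 4.91 and 4.83, in the background, after 24 h, against 9.50, 9.51 and 9.56. In OCI-Ly7 it stood at 8.14, 7.5 and 7.86 after 8 h, against 9.73, 9.998 and 9.45, and at 9.56, 9.36 and 9.57 after 24 h, against 9.75, 9.52 and 9.42. The OCI-Ly7 groups of 24 h overlapped (change -0.07 ± 0.16, limma adjusted p = 0.77), while in U2932 at 24 h ZNF215 was at least 11.1-fold lower. The effects differed by -1.58 ± 0.21 at 8 h and -4.66 ± 0.17 at 24 h (U2932 minus OCI-Ly7, adjusted p = 4.45e-05 and 1.85e-09), the second resting on a group in the background.

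ZNF121 rose in U2932 at 24 h, at 8.84, 9.14 and 9.02 with trabectedin against 6.89, 6.94 and 6.85 with DMSO, and had no call in OCI-Ly7, at 6.07, 5.58 and 5.76 against 5.78, 5.87 and 5.62. At 8 h it rose in both lines, by 1.87 ± 0.12 and 1.18 ± 0.16. Its DMSO arrays of OCI-Ly7 stood higher at 8 h, at 7.54, 7.75 and 7.16. ZNF23 differed between the lines at 24 h by 2.05 ± 0.19 (adjusted p = 1.63e-06), with changes of 3.09 ± 0.09 in U2932 and 1.04 ± 0.17 in OCI-Ly7.

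ZNF223 had no call in OCI-Ly7 at 8 h and rose at 24 h. It stood at 9.08, 9.26 and 9.21 after 8 h of trabectedin, against 9.25, 9.13 and 8.98 in DMSO, and at 10.34, 10.40 and 10.72 after 24 h, against 8.56, 8.04 and 8.22. The groups overlapped at 8 h and were apart at 24 h. ZNF580 rose in OCI-Ly7 at 8 h and had no call at 24 h. It stood at 8.31, 9.22 and 8.51 after 8 h of trabectedin, against 6.02, 5.88 and 6.28, and at 7.40, 8.12 and 7.88 after 24 h, against 6.33, 7.31 and 8.11. Its DMSO arrays of 24 h were far apart and overlapped the treated ones (change 0.55 ± 0.39, limma adjusted p = 0.285).

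**Figure D4:**
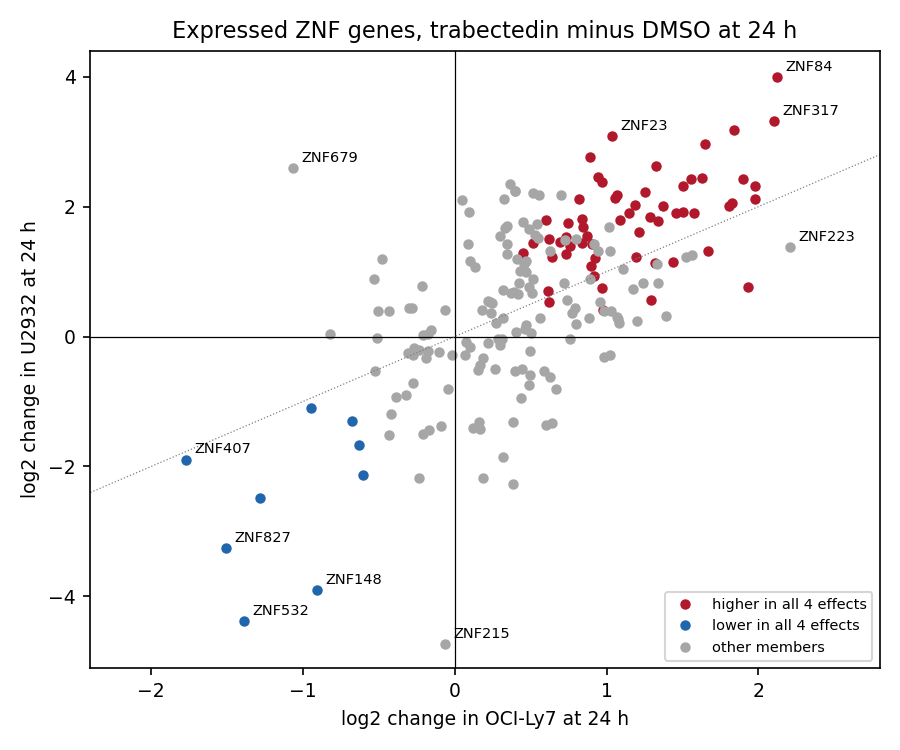
Log2 change (trabectedin minus DMSO) at 24 h in U2932 (vertical axis) against OCI-Ly7 (horizontal axis) for the 211 expressed ZNF genes; red points rose and blue points fell in all 4 comparisons, grey points are the others, and the dotted line marks equal change. ZNF84 lies highest at 3.99 and 2.13, and ZNF215 lies near 0 in OCI-Ly7 at -0.07.

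Effects at 24 h were set against those at 8 h within each line. In U2932 the 24 h effect was above the 8 h effect in 106 members and below it in 22, against 23.8% and 32.7% of all genes tested. Under median scaling it was above in 42 and below in 65, beside 834 and 5000 of all 10198 genes. In OCI-Ly7 it was above in 58 and below in 11, against 16.9% and 14.3% of all genes. Under median scaling it was above in 6 and below in 21 there, beside 107 and 2230 of all 10198 genes. Of the members that rose in U2932 at 8 h, 114 (93.4% of 122) also rose at 24 h, which is 82% of the 139 that rose then, against 30.8% of all genes that rose at both times. Of those that fell at 8 h, 44 (83% of 53) also fell at 24 h, which is 91.7% of the 48, against 36.5% of all genes that fell at both times. In OCI-Ly7 65 members rose at both times (64.4% of 101 and 67.7% of 96) and 10 fell at both (22.2% of 45 and 90.9% of 11), against 12.4% and 15.9% of all genes. Calls that fell were thus fewer at 24 h than at 8 h in OCI-Ly7, where replicates were also further apart: the lowest correlation between replicates over members was 0.936 among the DMSO arrays of 24 h, and the highest over all groups was 0.997.

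ZNF10 (KOX1), the prototype of the KRAB zinc finger proteins, changed direction in U2932. It stood at 6.17, 5.82 and 6.28 after 8 h of trabectedin, against 6.73, 6.93 and 6.90 in DMSO, and at 7.67, 7.71 and 7.71 after 24 h, against 6.75, 6.65 and 6.59. It fell by 0.76 ± 0.12 at 8 h and rose by 1.04 ± 0.07 at 24 h, but under median scaling it was lower at both times (-1.60 and -0.37, adjusted p = 4.47e-08 and 0.00476). In OCI-Ly7 it rose by 0.34 ± 0.13 and 1.11 ± 0.16, neither of which was called under median scaling, and 2 of 3 DMSO arrays detected it at each time.

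Members were then grouped by known role. Of 8 promoter and growth factors, 4 rose and 4 fell in U2932 at each time, against 37.3% and 39.5% of all genes tested at 8 h and 38.1% and 45.9% at 24 h, with 1 and 6 at 8 h and 2 and 5 at 24 h under median scaling. ZNF143, an activator of many housekeeping promoters, changed by -0.87 ± 0.12 and -1.19 ± 0.11 in U2932 and by -0.99 ± 0.14 in OCI-Ly7 at 8 h, with -0.42 ± 0.20 at 24 h (adjusted p = 0.11). Under median scaling ZNF143 was called lower in OCI-Ly7 at 24 h too, at -1.12 (limma adjusted p = 0.00935). ZNF410, which activates CHD4, changed by -0.71 ± 0.07 and -0.72 ± 0.08 in U2932 and by -0.52 ± 0.13 in OCI-Ly7 at 8 h. ZNF281 rose by 0.48 ± 0.07, 1.23 ± 0.06, 0.77 ± 0.13 and 0.64 ± 0.21 in the 4 comparisons, with -0.04 in U2932 at 8 h and in OCI-Ly7 at 24 h under median scaling. ZNF24, a SCAN protein, rose by 0.49 ± 0.09 and 1.22 ± 0.08 in U2932, and was lower at both times under median scaling (-0.33, called, and -0.13, not called). ZNF217, an oncogene that works with CtBP co-repressors, stood at 6.92, 7.21 and 7.17 in U2932 after 24 h of trabectedin, against 7.60, 7.82 and 7.64 in DMSO. In OCI-Ly7 it stood at 9.38, 9.30 and 9.25 after 24 h, against 8.79, 8.88 and 8.78. All treated arrays were below the controls in U2932 and above them in OCI-Ly7, where the value turned to -0.23 under median scaling (adjusted p = 0.638).

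Of 5 chromatin partners, 4 fell and 1 rose in U2932 at 24 h, against 45.9% and 38.1% of all genes tested. At 24 h in OCI-Ly7 3 fell and 0 rose, against 23.5% and 22.2% of all genes. Under median scaling 4 fell there, beside 2946 of all 10198 genes tested, and 0 rose in any comparison. Besides ZNF532 and ZNF827 these were ZNF644, a partner of the methyltransferases EHMT1 and EHMT2, and ZNF451, a SUMO ligase. ZNF644 changed by -1.32 ± 0.11, -1.67 ± 0.10, -0.94 ± 0.13 and -0.63 ± 0.17 in the 4 comparisons. ZNF451 stood at 5.91, 5.61 and 5.53 in U2932 after 24 h of trabectedin, 2 of these in the background, against 7.81, 7.83 and 7.97 in DMSO. It fell there by 2.18 ± 0.11 (limma adjusted p = 7.05e-07) and changed by -0.24 ± 0.18 in OCI-Ly7 at 24 h (adjusted p = 0.325). Under median scaling ZNF451 was called lower in OCI-Ly7 at 24 h too, at -0.93 (limma adjusted p = 0.0346). ZNF131 was called higher in U2932 at 24 h, at 6.27 ± 0.41 with trabectedin, against 5.62 ± 0.24 with DMSO (SD, n = 3 each), but 1 of 3 treated and 2 of 3 DMSO arrays detected it, and its change was -0.35 under median scaling.

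Of 8 members that act on RNA, ribosomes or the spindle, 7 rose and 1 fell in U2932 at 24 h, against 38.1% and 45.9% of all genes tested, with 3 and 4 under median scaling. At 24 h in OCI-Ly7 5 rose and 0 fell, against 22.2% and 23.5% of all genes, with 0 and 0 under median scaling. ZNF593, the relative of a yeast factor for the large ribosomal subunit, stood at 11.46, 11.49 and 11.59 in U2932 after 24 h of trabectedin, against 10.04, 9.88 and 9.96 in DMSO. In OCI-Ly7 it stood at 10.55, 10.76 and 10.69, against 10.06, 9.79 and 9.54. The groups did not overlap in either line. ZNF598, the ubiquitin ligase that marks collided ribosomes, rose by 0.79 ± 0.07, 1.68 ± 0.09, 1.09 ± 0.12 and 0.85 ± 0.30, and ZNF622, another factor of the large subunit, by 0.99 ± 0.08 and 1.69 ± 0.07 in U2932 and 1.02 ± 0.21 in OCI-Ly7 at 24 h. In U2932 ZNF593, ZNF598 and ZNF622 were higher under both scalings. ZNF346, which binds double-stranded RNA, and ZNF830, found with spliceosomes, rose in all 4 comparisons, by 0.61 to 1.06, but in U2932 at 24 h ZNF346 was at -0.61 and ZNF830 at 0.00 under median scaling, and in OCI-Ly7 at 24 h ZNF830 was at -0.04.

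ZNF207 (BuGZ), which carries BUB3 to kinetochores, was the 1 member of this role that fell in U2932 at 24 h on the quantile-normalised scale. Under median scaling ZNF326 (-0.43), ZNF346 (-0.61) and ZNF638 (-0.69) were called lower there as well. ZNF207 stood at 9.53, 9.56 and 9.61 in U2932 after 24 h of trabectedin, against 10.97, 11.02 and 11.04 in DMSO. It fell by 1.44 ± 0.06 (limma adjusted p = 2.66e-07), under median scaling too. In OCI-Ly7 it stood at 10.98, 11.04 and 10.79, against 11.35, 11.10 and 10.88, with overlapping groups.

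Among 4 KRAB proteins known for retrotransposons or heterochromatin, 2 rose and 2 fell in U2932 at 24 h, against 38.1% and 45.9% of all genes tested, with 0 and 3 under median scaling. ZNF274, which brings SETDB1 to the ends of other ZNF genes, stood at 8.61, 8.61 and 8.79 in U2932 after 24 h of trabectedin, against 9.21, 9.22 and 9.15 in DMSO. In OCI-Ly7 at 24 h it stood at 8.05, 8.28 and 8.23, against 8.02, 7.63 and 7.15. It fell by 0.52 ± 0.07 in U2932, while the OCI-Ly7 groups just missed overlapping and were not called (change 0.59 ± 0.22, adjusted p = 0.0562). ZNF91, which silences SVA elements, rose by 0.58 ± 0.13 and 1.16 ± 0.11 in U2932, and had -0.13 and -0.12 under median scaling, neither called. ZNF668, which protects p53 from MDM2, rose by 0.77 ± 0.08 and 1.32 ± 0.06 in U2932 and by 0.85 ± 0.15 in OCI-Ly7 at 8 h, the last of which was called under both scalings.

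The partners of KRAB proteins were read from 24 tested genes of 26 listed. In U2932 8 rose and 9 fell at 8 h, near the 37.3% and 39.5% of all genes tested, with 2 and 14 under median scaling. At 24 h 7 rose and 14 fell, against 38.1% and 45.9% of all genes, with 1 and 18 under median scaling. In OCI-Ly7 7 rose and 7 fell at 8 h, against 28.6% and 30.6% of all genes, and 2 rose and 5 fell at 24 h, against 22.2% and 23.5%, with 0 and 6 under median scaling. TRIM28 rose by 0.78 ± 0.08 and 1.83 ± 0.07 in U2932 and by 1.98 ± 0.17 in OCI-Ly7 at 8 h, under both scalings, and changed by 0.54 ± 0.32 at 24 h (adjusted p = 0.203). SETDB1, the methyltransferase it recruits, fell by 2.09 ± 0.09 in U2932 at 8 h, was at least 3.08-fold lower at 24 h, and changed by -0.76 ± 0.12 and -0.51 ± 0.17 in OCI-Ly7. SMARCAD1, a remodeller that binds TRIM28, was at least 4.43-fold and 3.56-fold lower in U2932 and changed by -1.54 ± 0.17 and -1.35 ± 0.21 in OCI-Ly7. PPHLN1, a subunit of the silencing complex HUSH, changed by -1.30 ± 0.07, -2.83 ± 0.08, -0.96 ± 0.12 and -1.22 ± 0.16 in the 4 comparisons. Others of the list rose: SUV39H1 by 0.62, 0.74, 0.31 and 1.03 in the 4 comparisons, and MPHOSPH8 by 0.47 and 0.58 in U2932. DAXX rose by 0.98 and 1.30 in U2932 and by 0.93 in OCI-Ly7 at 8 h. Under median scaling SUV39H1 was not called, DAXX was called higher in OCI-Ly7 at 8 h only, and MPHOSPH8 was called lower in U2932 at 24 h (-0.71).

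The members differed by the length of the gene. Annotated spans in RefSeq divided the 211 members into a shortest class of 71 (up to 16.4 kb), a middle class of 70 and a longest class of 70 (over 29.9 kb). In U2932 at 24 h, 58 rose and 8 fell in the shortest class (median 1.23), 49 and 12 in the middle class (0.80) and 32 and 28 in the longest class (0.07). Under median scaling these became 32 and 22 (0.20), 23 and 33 (-0.09) and 11 and 47 (-0.89), so the order of the classes stayed while the sign of 2 medians did not stay positive. Other protein-coding genes at the same level ran in the same order, with medians of 0.57, 0.07 and -1.29 in the same classes. At 8 h in U2932 the member medians were 0.71, 0.41 and 0.04, and the other genes' 0.41, 0.13 and -0.69, with member medians of 0.23, -0.13 and -0.56 under median scaling. In OCI-Ly7 at 8 h the member medians were 0.58, 0.29 and -0.10, with 23 that rose and 27 that fell in the longest class, and 0.60, 0.26 and 0.10 under median scaling. At 24 h in OCI-Ly7 the members had 0.73, 0.58 and 0.20 and the other genes 0.27, 0.18 and -0.37, with member medians of 0.18, 0.12 and -0.39 under median scaling.

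The 59 members that rose in all 4 comparisons had a median span of 17.9 kb, the 9 that fell one of 124 kb, and all members one of 22.7 kb. Of the 9, 8 were in the longest class, from ZNF573 at 41.3 kb to ZNF407 at 468 kb, and ZNF586 at 10.9 kb was the exception. Of the 59, 10 were in the longest class, the longest of them ZNF600 at 69.5 kb. ZNF593, at 0.966 kb, was the shortest member.

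**Figure D5:**
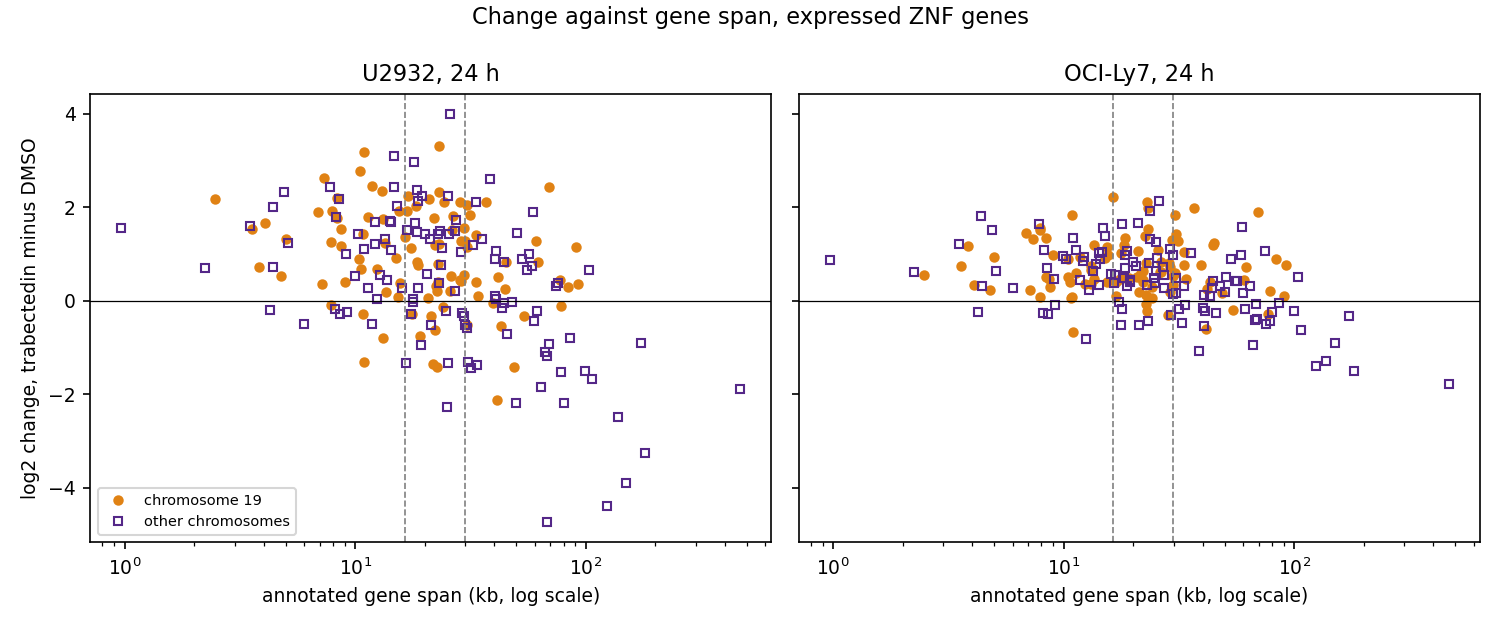
Log2 change (trabectedin minus DMSO) at 24 h against annotated gene span (kb, log axis) for the 211 expressed ZNF genes in U2932 (left) and OCI-Ly7 (right); filled orange points lie on chromosome 19, open purple squares on other chromosomes, and dashed lines mark the class bounds of 16.4 and 29.9 kb. In U2932 the medians of the 3 classes from short to long are 1.23, 0.80 and 0.07.

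On chromosome 19, 74 of 97 members rose and 11 fell in U2932 at 24 h (median 0.88), against 65 and 37 of 114 on other chromosomes (0.54). Under median scaling these were 35 and 39 (-0.02) on chromosome 19 and 31 and 63 (-0.45) elsewhere. Of the 476 other genes at the same level on chromosome 19, 57.1% rose and 27.5% fell. In OCI-Ly7 at 24 h 53 rose and 2 fell on chromosome 19, against 43 and 9 elsewhere, and under median scaling 5 and 3, against 6 and 20. Of the other genes on chromosome 19, 35.5% rose and 12.2% fell there. The values below are on the quantile-normalised scale unless stated. On it 38.1% of all genes tested rose and 45.9% fell in U2932 at 24 h, as did 65.9% and 22.7% of all members. In OCI-Ly7 at 24 h 22.2% of all genes rose and 23.5% fell. In the run of 28 neighbouring genes from ZNF547 to ZNF256 near the end of chromosome 19, 14 were members, of which 10 rose and 3 fell in U2932 at 24 h (median 1.48) and 9 rose and 1 fell in OCI-Ly7 (0.78). ZNF211 and ZNF256 rose while their neighbour ZNF586 fell. Under median scaling ZNF134, ZNF211, ZNF256, ZNF416, ZNF419, ZNF551 and ZNF776 of this run were called higher in U2932 at 24 h. ZNF17, ZNF548, ZNF586 and ZNF773 were called lower. In OCI-Ly7 at 24 h ZNF586 alone was then called, and it was lower. In the run from ZNF605 to ZNF268 on chromosome 12, 5 of 7 genes were members, and 5 of 5 rose in U2932 at 24 h: ZNF10, ZNF26, ZNF84, ZNF140 and ZNF268 (median 1.49). Under median scaling ZNF84 and ZNF268 were called higher, ZNF140 was not called, and ZNF10 and ZNF26 were called lower (-0.37 and -0.34, adjusted p = 0.00476 and 0.00737). At 8 h 3 of these 5 rose and 1 fell in each line, against 37.3% and 39.5% of all genes in U2932 and 28.6% and 30.6% in OCI-Ly7. In the run from ZNF627 to ZNF791 on chromosome 19, with 11 members, 8 rose and 1 fell in U2932 at 24 h with a median of 0.39. Under median scaling ZNF844 was called higher there, while ZNF20, ZNF564, ZNF627, ZNF700, ZNF763, ZNF791 and ZNF823 were called lower. In the run from ZNF786 to ZNF746 on chromosome 7, with 7 members, 4 rose and 2 fell in U2932 at 24 h with a median of 0.28. There median scaling called ZNF425 (in the background in both groups) and ZNF786 higher, and ZNF212, ZNF282, ZNF746 and ZNF777 lower.

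Without the drug the lines differed in members about as often as in all genes tested. Over the DMSO arrays of both times, 83 members were higher in U2932 and 73 lower, near the 36.3% and 33.5% of all genes. Under median scaling 157 were higher and 19 lower, beside 7460 and 1005 of all 10198 genes tested, which shifted by 0.73 at the median. ZNF329 stood at 8.94, 9.03 and 9.01 at 8 h and 8.78, 8.91 and 8.79 at 24 h in U2932, against 5.45, 5.66 and 5.42 and 5.93, 5.86 and 5.42 in OCI-Ly7, a difference of 3.29 ± 0.09 (limma adjusted p = 2.29e-13). The lines did not overlap at either time, and 2 of 3 OCI-Ly7 arrays detected it at each time. ZNF532 was higher in U2932 by 2.82 ± 0.09 and ZNF654 by 2.53 ± 0.08. ZNF439 was in the background on all 6 U2932 DMSO arrays, and on all 6 treated ones, and between 7.96 and 8.65 in OCI-Ly7 DMSO, so it was at least 6.9-fold lower in U2932. ZNF821 was at least 2.9-fold and ZNF792 at least 2.05-fold lower in U2932, and ZNF614 was lower by -1.66 ± 0.09 (U2932 minus OCI-Ly7). In all, 5 members were in the background in U2932 DMSO only, 8 in OCI-Ly7 DMSO only and 6 in both.

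Other families of C2H2 genes at the same level had fewer genes. At 24 h 38.1% of all genes tested rose and 45.9% fell in U2932, and 22.2% and 23.5% in OCI-Ly7. Of 25 ZBTB genes 13 rose and 7 fell in U2932 at 24 h and 9 rose and 0 fell in OCI-Ly7 at 24 h (medians 0.34 and 0.34). Of 9 ZSCAN and ZKSCAN genes 5 rose and 3 fell in U2932 and 4 and 2 in OCI-Ly7 (0.46 and 0.42), and of 7 ZFP genes 3 and 3, and 2 and 1 (-0.20 and 0.13). Under median scaling the U2932 counts became 7 and 16 for ZBTB, 2 and 6 for ZSCAN and ZKSCAN and 1 and 5 for ZFP genes. The OCI-Ly7 counts became 0 and 0, 1 and 2, and 0 and 1. Of all 10198 genes tested, 1656 rose and 6908 fell in U2932 at 24 h under that scaling, and 306 and 2946 in OCI-Ly7. These groups of 7 to 25 genes were set beside the members as values only, and the difference from the members was not tested.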

How the data were processed

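RNA of 24 samples was measured on Illumina bead arrays of 47231 probes. The deposited probe intensity values, not background-corrected, were used; the deposited log2 values are, from their comparison with the deposited intensity values, the log2 of the quantile-normalised intensity, and they chose the members. The tool behind the deposited values is not given in the sources used here. Intensities were corrected with normexp (limma nec), taking 635 probes of silent gene families (olfactory and taste receptors, keratin-associated proteins, defensins, vomeronasal receptors) as negative controls and an offset of 16, then log2-transformed and quantile-normalised over 24 arrays. A probe's detection p is the share of these 635 probes at least as bright. A probe was tested if 3 or more arrays gave it a detection p under 0.01, and "in the background" means a detection p of 0.01 or more. Of all probes 30113 had 1 gene symbol, 8 had several and 17110 had none. The brightest tested probe stood for a gene, which gave 10198 genes. Each effect was fitted on its own arrays with limma 3.58.1 in R 4.3.3 (lmFit, eBayes, two-sided); p-values were adjusted over all genes by Benjamini and Hochberg, with calls at an adjusted p under 0.05. Where 1 group was in the background on all 3 arrays, the fold is a bound ("at least"), with the dim group set, array by array, at the higher of its own value and the lowest detected signal. Python 3.11.15, pandas 2.3.3 and matplotlib 3.10.9 served for promoters and figures. The fits were tested on simulated data with known changes.

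The members and lists were chosen with earlier results of these data known. Named members are, per comparison, 5 at each end of the called changes whose groups do not overlap and of which 1 is detected on all 3 arrays, 3 at each end for differences between effects and for DMSO, those beside the level threshold, and those of the role lists. Any other member (ZNF557 and ZNF256, chosen for their promoter motifs, and those in pattern or neighbour lists) was named after its values were seen. Alternatives were median scaling, the deposited log2 values, other detection filters, the mean of a gene's probes, 1 fit over all arrays, a replicate block, each array left out in turn and, chosen after seeing the data, members at the level in both groups compared or on average. Replicate numbers were not taken as pairs: same-numbered arrays' deviations did not correlate above 0.1 in every pair of any comparison. They did so in 1 pair each in U2932 at 8 h (0.11) and in OCI-Ly7 at 8 h (0.15) and 24 h (0.23). With 3 pairs per comparison this check cannot exclude pairing. Protein domains (KRAB, SCAN) from sequence were not used here. The number of arrays limits the precision.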

Additional observations from a re-analysis of the deposited data

Results flagged for a closer look

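These members are given because a test of the difference between 2 effects passed the threshold (limma, Benjamini-Hochberg adjusted p under 0.05 over all genes). They are the 3 highest and 3 lowest for each difference, as log2 values ± SE.

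Between 24 h and 8 h in U2932 (24 h effect minus 8 h effect), ZNF679 differed by 1.91 ± 0.32 (adjusted p = 0.000298), ZNF707 by 1.81 ± 0.15 (9.67e-07) and ZNF10 by 1.80 ± 0.15 (1.06e-06). ZNF627 differed by -1.70 ± 0.10 (9.09e-08), ZNF451 by -1.63 ± 0.13 (6.6e-07) and ZNF839 by -1.49 ± 0.16 (9.42e-06). ZNF839 stood at 5.45, 5.02 and 5.20 after 24 h of trabectedin, in the background, against 7.46, 7.60 and 7.42 in DMSO. ZNF627 was in the background there too, and ZNF707 in the background after 8 h of trabectedin.

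In OCI-Ly7 the same difference was 2.49 ± 0.41 in ZNF821 (0.000893), 2.15 ± 0.22 in ZNF223 (0.000103) and 1.88 ± 0.27 in ZNF653 (0.000391). It was -2.06 ± 0.51 in ZNF580 (0.0084), -1.18 ± 0.28 in ZNF384 (0.00719) and -1.13 ± 0.25 in ZNF121 (0.00427). ZNF821 stood at 6.39, 5.53 and 6.23 after 8 h of trabectedin, against 7.75, 7.42 and 7.37 in DMSO, and at 7.83, 7.48 and 7.07 after 24 h, against 7.10, 6.08 and 6.12. At 8 h, 2 of 3 treated arrays detected it. The 24 h trabectedin arrays were on a slide of their own, so slide and treatment cannot be told apart in these 6 values.

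Between the lines at 8 h (U2932 effect minus OCI-Ly7 effect), ZNF821 differed by 1.95 ± 0.28 (7.04e-05), ZNF211 by 1.19 ± 0.13 (6.74e-06) and ZNF627 by 1.15 ± 0.23 (0.00102). ZNF532 differed by -1.71 ± 0.14 (5.11e-07), ZNF215 by -1.58 ± 0.21 (4.45e-05) and ZNF148 by -1.22 ± 0.14 (8.74e-06). ZNF821 was in the background in U2932 DMSO and ZNF532 in OCI-Ly7 with trabectedin, so these differences rest in part on background values.

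Between the lines at 24 h, ZNF679 differed by 3.66 ± 0.66 (0.000374), ZNF121 by 2.05 ± 0.20 (1.97e-06) and ZNF23 by 2.05 ± 0.19 (1.63e-06). ZNF215 differed by -4.66 ± 0.17 (1.85e-09), ZNF148 by -3.00 ± 0.26 (9.75e-07) and ZNF532 by -2.99 ± 0.20 (1.27e-07), each with U2932 trabectedin arrays in the background. For ZNF532 the OCI-Ly7 trabectedin arrays were in the background too. Its difference therefore cannot be told apart from that of the DMSO levels, at means of 9.22 in U2932 and 6.21 in OCI-Ly7. ZNF679 stood at 7.71, 8.58 and 8.04 in U2932 with trabectedin, against 5.52, 5.52 and 5.49 with DMSO, and at 6.32, 6.53 and 5.48 in OCI-Ly7 with trabectedin, against 6.07, 6.92 and 8.53 with DMSO. Its OCI-Ly7 groups overlapped, with DMSO arrays far apart, and 2 of 3 arrays detected it in U2932 with DMSO and in OCI-Ly7 with trabectedin.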

How the results depend on the processing

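Median scaling moved the most counts. Under it 61 members rose and 98 fell in U2932 at 8 h, 66 and 102 at 24 h, and 11 and 23 in OCI-Ly7 at 24 h, and the member medians in U2932 turned to -0.15 at 8 h and -0.23 at 24 h. The 24 h effect was then above the 8 h effect in 42 members and below in 65 in U2932, and in 6 and 21 in OCI-Ly7. The U2932 effect was above the OCI-Ly7 effect in 5 and below in 103 at 8 h, and above in 19 at 24 h, and 157 members were higher and 19 lower in U2932 DMSO. The counts over all genes tested under that scaling are given with these results above. With 1 fit over all 24 arrays 21 members fell in OCI-Ly7 at 24 h, and 19 had a 24 h effect below that of 8 h. Among the 86 members at the level in all 8 groups, 2 fell in OCI-Ly7 at 24 h, and 17 had a higher effect in U2932 than in OCI-Ly7 at 24 h; fewer members were counted there. The cause of the other moves was not tested. The 70 values at either end of a comparison or difference, as chosen by the naming rule, did not reverse under any alternative run, and 3 of them missed the threshold, all under median scaling. The 70 leave out most values of members named for their role or pattern, several of which turned sign or lost their call under median scaling, as given beside them. The 3 were ZNF845 in OCI-Ly7 at 24 h (1.19, limma adjusted p = 0.0647), ZNF653 between times in OCI-Ly7 (1.16, 0.0737) and ZNF627 between lines at 8 h (0.45, 0.195).

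With each array left out in turn, between 115 and 119 members rose and 47 and 52 fell in U2932 at 8 h, 132 to 142 and 44 to 50 at 24 h, 85 to 93 and 38 to 46 in OCI-Ly7 at 8 h, and 73 to 94 and 7 to 12 at 24 h. The 7 came without replicate 2 of OCI-Ly7 DMSO at 24 h. The 24 h effect was above that of 8 h in 102 to 110 and below in 19 to 24 in U2932, and in 46 to 66 and 7 to 16 in OCI-Ly7, the 7 without replicate 2 of OCI-Ly7 DMSO at 8 h. The U2932 effect was above that of OCI-Ly7 in 40 to 48 and below in 31 to 43 at 8 h, and in 60 to 77 and 47 to 55 at 24 h, and in DMSO 78 to 92 were higher and 69 to 76 lower. With the replicate number as a block, 122 rose and 51 fell in U2932 at 8 h, 139 and 47 at 24 h, 95 and 45 in OCI-Ly7 at 8 h, and 98 and 10 at 24 h. In no comparison did every sample correlate best with its own number. Signal over background limits the members in the background, for which only bounds are given.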

Other observations

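Some members owed their place to a very bright probe. The brightest probe of ZNF430 had a mean deposited log2 value of 12.81 over all arrays and its next probe 7.15, and the brightest of ZNF549 had 11.89 and its next 7.252. The only probes of ZNF674 and ZNF486 had 13.91 and 12.27. ZNF14, ZNF652 and ZNF682 also had a gap between probes, at 11.47 and 7.597, 11.41 and 6.711, and 10.83 and 7.021, while the probes of ZNF22 were alike at 11.1 and 10.89. Whether other transcripts bind the brighter probes was not tested.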
